A study of Caenorhabditis elegans with 6 samples.

Results

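The genes described here encode the contractile lattice of Caenorhabditis elegans muscle and the structures that anchor it to the cell membrane. The rule names 40 of them: myosin and actin filament proteins, giant titin-like proteins, actin regulators, integrin attachment proteins and the channels that couple excitation to contraction. A gene was included where a probe set (the group of probes that reports a transcript on the array) lists it alone. Of several such probe sets, the one with the highest mean over all 6 arrays was used. This gave 38 of the 40 genes, of 17118 genes measured, since act-1 and act-2 are found only on probe sets that list several actin genes.

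The tested worms received 300 µg/ml of the benzimidazole albendazole (ABZ), delivered in DMSO at 1.5% by volume, for 4 h, and the control worms received 1.5% DMSO over the same 4 h. Each condition was measured on 3 Affymetrix arrays, labelled as biological replicates. All worms, controls included, were strain CB3474 with the genotype ben-1(e1880)III and were young adults, raised in liquid at 20 °C from synchronised L1 larvae over 70 h. RNA came from whole animals. Values are log2 signals, which the submitters' processing notes link to RMA, so a difference of 1 is a 2-fold change.

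As background, ben-1 encodes a β-tubulin whose loss is known to make C. elegans resistant to benzimidazoles. Body-wall muscle in this animal is obliquely striated. Myosin thick filaments are held at M-lines, actin thin filaments at dense bodies, and both structures are fixed to the membrane by integrin and, beyond it, to a perlecan-rich basement membrane. The pharynx is a separate muscle with its own myosins and troponins. Muscle membrane depolarisation opens calcium channels, stored calcium is released through the ryanodine receptor, and calcium binding to troponin frees actin for myosin.

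No muscle gene differed between ABZ and DMSO worms at an adjusted p under 0.05 (limma, Benjamini-Hochberg over all 22548 probe sets tested). The adjusted p values of the 38 genes ran from 0.651 to 0.997. The background was the same, since 0 probe sets (0.0%) were called over the whole table and 0.651 was the smallest adjusted p of all. One gene, the pharyngeal troponin T gene tnt-4, had an unadjusted p under 0.05 on the probe set used. At that threshold 343 probe sets (1.52%) were higher and 77 (0.341%) were lower in ABZ worms.

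The difference between ABZ and DMSO means was positive for 35 of 38 muscle genes, negative for unc-54 and unc-95, and 0.00 for unc-89, but quantile and cyclic loess scaling between arrays each turned the sign of 13 genes and brought the median to 0.02. As deposited, its median was 0.16 on the log2 scale, against 0.02 over all 17118 genes. Muscle genes are bright, however, and 36 of the 38 lie in the upper 2 of 5 equal bins of genes ranked by mean signal. Those bins had medians of 0.21 and 0.20, so the muscle median lies below that of genes of like brightness.

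The array of DMSO replicate 1 stood apart from the other 5. Its values had an SD of 1.73 over probe sets, against 1.98 to 2.02 on the other arrays, and it correlated with them at 0.934 to 0.943, while every other pair reached at least 0.988. It gave the lowest of the 6 values for 30 of the 38 muscle genes (78.9%) and for 80.8% of the genes in the 2 brightest bins. Differences below are therefore given with all 6 arrays and then without it, and its part in the differences beyond these values was not tested.

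Without DMSO replicate 1, 29 muscle genes had a positive and 9 a negative difference, with a median of 0.07. The 2 brightest bins then had medians of 0.01 and 0.00, and all genes a median of −0.02. Again no muscle gene was called, with a smallest adjusted p of 0.775 (limma), and none had an unadjusted p under 0.05. Over the whole table, 0 probe sets (0.0%) were called and 1294 (5.74%) had an unadjusted p under 0.05 in that comparison.

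**Figure D1:**
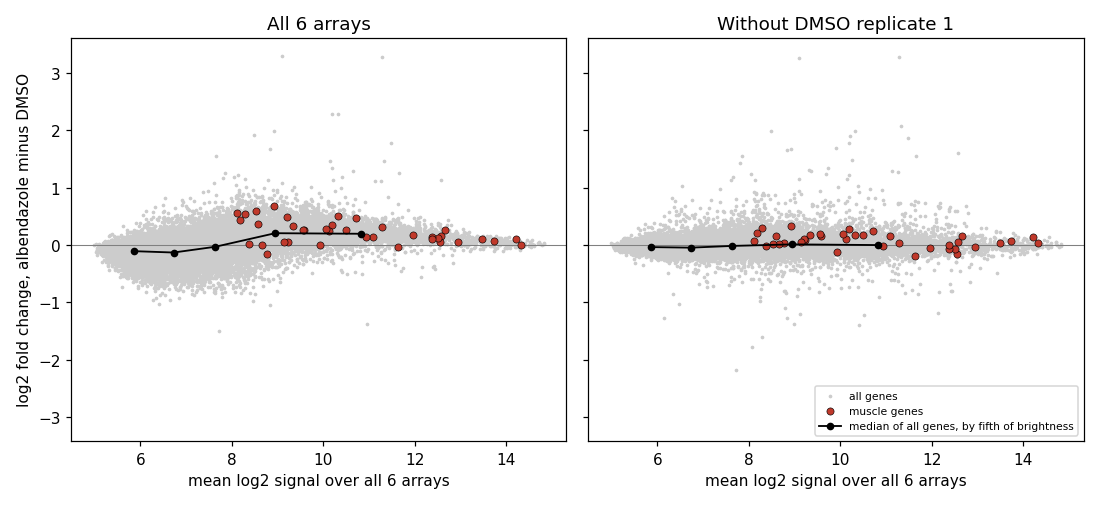
Log2 fold change of every gene (ABZ minus DMSO) against its mean log2 signal over all 6 arrays, with muscle genes in red and black points joined by a line for the median in each of 5 equal brightness bins. With all 6 arrays (left) bright genes sit above 0, with medians of 0.21 and 0.20 in the upper 2 bins, and without DMSO replicate 1 (right) those medians are 0.01 and 0.00.

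The precision of the arrays sets how large a difference could have been missed. With all 6 arrays, the 95% interval of the difference lay inside a 2-fold change in either direction for 30 of 38 muscle genes. The other 8 were myo-1, unc-22, unc-45, unc-68, unc-97, unc-112, tnt-3 and pat-2. Without DMSO replicate 1 the interval lay inside 2-fold for 37 genes, the exception being unc-68, and inside 1.5-fold for 28. In RNA from whole worms, a change in the share of muscle and a change in RNA per muscle cell cannot be told apart.

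**Figure D2:**
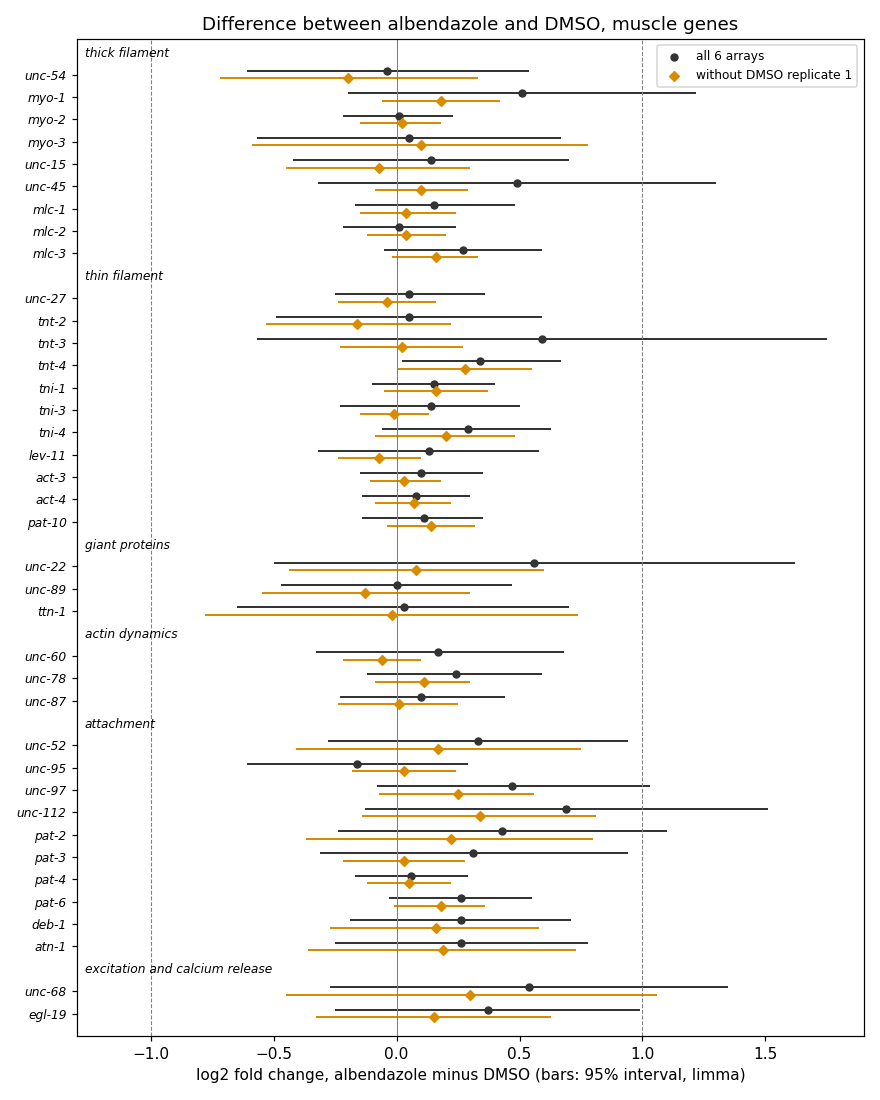
Log2 fold change of each muscle gene, ABZ minus DMSO, with its 95% limma interval, grouped by role, with all 6 arrays (black circles) and without DMSO replicate 1 (orange diamonds). Dashed lines mark a 2-fold change, and tnt-4 is the gene whose interval with all arrays lies clear of 0, though its difference was 0.11 (unadjusted p = 0.534) under quantile scaling.

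Thick filament genes were the myosin heavy chains, their light chains, the paramyosin core and a myosin chaperone. Of the 9, 8 had a positive difference with a median of 0.14, though myo-2, myo-3, unc-15 and mlc-2 were negative under quantile and cyclic loess scaling. Without DMSO replicate 1 there were 7 positive and 2 negative with a median of 0.04. No member was called.

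The gene unc-54 encodes the main myosin heavy chain of body-wall muscle. Its log2 signals were 11.87, 11.54 and 11.43 in ABZ worms, against 11.33, 11.51 and 12.11 in DMSO worms. The groups overlapped, with both the lowest and the highest array among the DMSO worms. Their difference was −0.04 (95% interval −0.61 to 0.54), and −0.20 without DMSO replicate 1. For myo-3, the second body-wall myosin, which sits in the centre of the filament, the signals were 9.79, 9.03 and 8.94 in ABZ worms and 9.29, 8.96 and 9.35 in DMSO worms. ABZ replicate 1 stood above all the others, and the other ABZ arrays lay within or below the DMSO range. The difference was 0.05 (−0.57 to 0.67), 0.10 without DMSO replicate 1 and −0.22 without ABZ replicate 1.

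Both pharyngeal myosins were measured. For myo-1 the signals were 10.53, 10.72 and 10.45 in ABZ worms, against 9.39, 10.43 and 10.35 in DMSO worms. All ABZ arrays lay above all DMSO arrays, but the nearest values were only 0.02 apart, and DMSO replicate 1 lay far below the rest. The difference was 0.51 (−0.20 to 1.22, limma adjusted p = 0.651), and 0.18 (−0.06 to 0.42) without that array. Another probe set of myo-1, with a mean of 8.14, had overlapping groups and a difference of 0.12, or 0.09 without that array. For myo-2 the signals were 8.62, 8.74 and 8.62 in ABZ worms and 8.68, 8.66 and 8.63 in DMSO worms. These 6 values overlapped closely, with a difference of 0.01 (−0.22 to 0.23), and 0.02 without DMSO replicate 1.

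Paramyosin, encoded by unc-15, forms the core on which myosin assembles. Its signals were 12.60, 12.50 and 12.25 in ABZ worms and 11.89, 12.33 and 12.72 in DMSO worms. The DMSO arrays spanned the ABZ arrays on both sides, and the difference was 0.14, or −0.07 without DMSO replicate 1. For unc-45, whose product folds myosin heads, the signals were 9.54, 9.35 and 9.45 in ABZ worms, against 8.17, 9.32 and 9.38 in DMSO worms. DMSO replicate 1 was more than 1 log2 unit below the other 5 values. The difference was 0.49 with it and 0.10 (−0.09 to 0.29) without it. A dimmer probe set of unc-45, with a mean of 6.39, had a difference of −0.24, or 0.02 without that array.

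Among the light chains, mlc-3 (the essential light chain) had signals of 12.86, 12.80 and 12.70 in ABZ worms and 12.29, 12.62 and 12.64 in DMSO worms. The groups did not overlap. The difference was 0.27 (−0.05 to 0.59), and 0.16 (−0.02 to 0.33) without DMSO replicate 1. Another probe set of mlc-3, with the same mean signal of 12.65, had overlapping groups. Its difference was 0.03, or 0.00 without that array. The regulatory light chain genes mlc-1 and mlc-2 had overlapping groups, with differences of 0.15 and 0.01, and of 0.04 for each without DMSO replicate 1. Another probe set of mlc-2, with a mean of 12.16 against 14.31 for the one used, had groups that did not overlap. Its difference was 0.17, or 0.11 without DMSO replicate 1. A probe set that lists both mlc-1 and mlc-2 gave 13.24, 13.14 and 13.15 in ABZ worms, against 13.04, 13.08 and 13.11 in DMSO worms. There the groups did not overlap and the difference was 0.11 (−0.12 to 0.33), or 0.09 without that array. Close copies can hybridise to each other's probes, so the light chain values may be mixed.

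Thin filament genes encode actin, tropomyosin and the 3 troponin subunits. All 11 measured genes had a positive difference, with a median of 0.13, though unc-27, tnt-2, tni-1, tni-3 and lev-11 were negative under quantile and cyclic loess scaling. Without DMSO replicate 1 there were 7 positive and 4 negative, with a median of 0.03, and none was called either way.

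The troponin T gene tnt-4, whose product ties troponin to tropomyosin in the pharynx, averaged 10.36 ± 0.06 in ABZ worms and 10.02 ± 0.21 in DMSO worms (SD, n = 3 each). Its signals were 10.43, 10.35 and 10.30 in ABZ worms, against 9.88, 10.25 and 9.91 in DMSO worms. The groups did not overlap, and DMSO replicate 2 came within 0.05 of the lowest ABZ array. The difference was 0.34 (0.02 to 0.67; limma unadjusted p = 0.0406, adjusted p = 0.651). It was 0.28 (0.00 to 0.55, unadjusted p = 0.0507) without DMSO replicate 1. Under quantile and cyclic loess scaling it was 0.11 and 0.10 (unadjusted p = 0.534 and 0.592), and with the replicate number as a block its unadjusted p was 0.0718. Its pharyngeal partner tni-4, a troponin I gene, had signals of 10.18, 10.30 and 10.10 in ABZ worms and 9.73, 10.15 and 9.84 in DMSO worms. One DMSO array lay inside the ABZ range, and the difference was 0.29 (−0.06 to 0.63), or 0.20 (−0.09 to 0.48) without DMSO replicate 1.

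Outside the pharynx, the troponin T gene tnt-3 had the widest interval of the 38 genes. Its signals were 8.95, 8.80 and 8.72 in ABZ worms, against 7.08, 8.70 and 8.90 in DMSO worms. DMSO replicate 1 lay far below the other DMSO arrays, which were close to the ABZ range or inside it. The difference was 0.59 (−0.57 to 1.75), and 0.02 (−0.23 to 0.27) without that array. For tnt-2, another troponin T gene, the signals were 12.41, 12.56 and 12.75 in ABZ worms and 12.12, 12.53 and 12.93 in DMSO worms. The DMSO arrays spanned the ABZ arrays on both sides, and the difference was 0.05, or −0.16 (−0.53 to 0.22) without DMSO replicate 1.

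The troponin I genes, whose products hold back contraction, differed little. In tni-1 the signals were 11.27, 11.09 and 11.08 in ABZ worms and 11.02, 11.05 and 10.94 in DMSO worms. The groups did not overlap, by a margin of 0.03, and the difference was 0.15 (−0.10 to 0.40), or 0.16 without DMSO replicate 1. For unc-27 and tni-3 the groups overlapped, with differences of 0.05 and 0.14, and of −0.04 and −0.01 without DMSO replicate 1. Troponin C, the calcium-binding subunit encoded by pat-10, gave 14.35, 14.20 and 14.21 in ABZ worms, against 14.22, 14.12 and 14.11 in DMSO worms. The groups just overlapped, and the difference was 0.11 (−0.14 to 0.35), or 0.14 without that array.

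Tropomyosin, which lies along actin and is encoded by lev-11, had signals of 12.55, 12.63 and 12.51 in ABZ worms and 12.03, 12.59 and 12.67 in DMSO worms. Its groups overlapped, with differences of 0.13 and, without DMSO replicate 1, of −0.07 (−0.24 to 0.10). The other probe sets of lev-11 ran from −0.18 to 0.56. A dimmer one, with a mean of 9.27, had groups that did not overlap. Its difference was 0.41 (0.02 to 0.80, limma unadjusted p = 0.0432), or 0.29 without DMSO replicate 1. The actin gene act-4 gave 13.82, 13.75 and 13.71 in ABZ worms, against 13.67, 13.69 and 13.69 in DMSO worms. Its groups were separated by 0.01, and its difference was 0.08 (−0.14 to 0.30), or 0.07 without that array. For act-3 the groups were separated by 0.00 to 2 decimals, with a difference of 0.10 (−0.15 to 0.35), or 0.03 without it. The probe sets shared by act-1, act-2 and act-3 overlapped between groups. One gave 14.35, 14.40 and 14.48 in ABZ worms and 14.32, 14.34 and 14.41 in DMSO worms, a difference of 0.05 (−0.18 to 0.28), and the other a difference of 0.08 (−0.14 to 0.31). With DMSO replicate 1 left out these were 0.04 and 0.05.

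The giant proteins, built of immunoglobulin and fibronectin domains, gave differences from 0.00 to 0.56 with a median of 0.03, or −0.02 without DMSO replicate 1. The gene unc-22 encodes twitchin, a kinase-bearing protein of the thick filament. Its signals were 8.72, 8.37 and 8.10 in ABZ worms, against 6.87, 8.11 and 8.54 in DMSO worms. DMSO replicate 1 again lay far below, and the difference was 0.56 (−0.50 to 1.62) with it and 0.08 (−0.44 to 0.60) without it. A dimmer probe set of unc-22, with a mean of 6.71, had a difference of −0.27, or −0.08 without that array. For the obscurin-like M-line gene unc-89 the difference was 0.00 (−0.47 to 0.47), or −0.13 without that array, with signals of 10.05, 9.79 and 9.95 in ABZ worms and 9.68, 9.79 and 10.32 in DMSO worms. The titin-like gene ttn-1 had signals of 8.92, 8.02 and 8.25 in ABZ worms, against 8.28, 8.11 and 8.73 in DMSO worms. ABZ replicate 1 was the highest and ABZ replicate 2 the lowest of the 6. Its difference was 0.03, −0.02 without DMSO replicate 1 and −0.24 without ABZ replicate 1. The other probe sets of ttn-1, all dimmer, gave 0.09, −0.47, −0.54, −0.20 and −0.13. Without DMSO replicate 1 these were 0.00, −0.16, −0.24, 0.01 and −0.08.

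Of the actin regulators, unc-60 encodes ADF/cofilin, which severs filaments, unc-78 its partner Aip1, and unc-87 a calponin-like filament stabiliser. Their differences were 0.17, 0.24 and 0.10, and −0.06, 0.11 and 0.01 without DMSO replicate 1. All groups overlapped. In unc-60 the ABZ signals of 12.04, 12.05 and 12.07 were nearly identical, against 11.42, 12.05 and 12.17 in DMSO worms.

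Attachment genes, which encode the chain from basement membrane through integrin to actin, had a median difference of 0.29. Of the 10 genes, 9 had a positive difference, and pat-4 turned negative under quantile and cyclic loess scaling. Without DMSO replicate 1 all 10 were positive, from 0.03 to 0.34 with a median of 0.17, and without replicate 1 of both conditions the median was 0.02. None was called in any of these, and the difference between the groups of genes was not tested.

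The largest difference among the 38 genes was that of unc-112, which encodes kindlin, an activator of integrin. Its signals were 9.62, 9.11 and 9.04 in ABZ worms, against 7.87, 8.80 and 9.03 in DMSO worms. The groups were separated by 0.01, with ABZ replicate 1 and DMSO replicate 1 at the extremes. The difference was 0.69, a 1.61-fold ratio (−0.13 to 1.51, limma adjusted p = 0.651), and 0.34 (−0.14 to 0.81) without DMSO replicate 1. Without replicate 1 of both conditions it was 0.15.

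The products of unc-97, pat-6 and pat-4 form the complex that links integrin to actin. For unc-97, which encodes PINCH, the signals were 11.18, 10.91 and 10.78 in ABZ worms and 10.03, 10.66 and 10.76 in DMSO worms. The groups were separated by 0.02, and the difference was 0.47 (−0.08 to 1.03), or 0.25 (−0.07 to 0.56) without DMSO replicate 1. The parvin gene pat-6 gave 10.72, 10.64 and 10.53 in ABZ worms, against 10.20, 10.46 and 10.45 in DMSO worms. Its groups were separated by 0.07, the widest gap of any muscle gene, with differences of 0.26 (−0.03 to 0.55) and 0.18 (−0.01 to 0.36) with and without that array. For the integrin-linked kinase gene pat-4 the groups overlapped, and the difference was 0.06 (−0.17 to 0.29), or 0.05 without that array.

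The integrin receptor itself is encoded by pat-2 (α) and pat-3 (β). In pat-2 the signals were 8.88, 8.19 and 8.11 in ABZ worms and 7.54, 8.18 and 8.17 in DMSO worms. Replicates 2 and 3 of both conditions lay close together, with replicate 1 highest in ABZ worms and lowest in DMSO worms. The difference came to 0.43 (−0.24 to 1.10), 0.22 without DMSO replicate 1 and −0.03 without replicate 1 of both. For pat-3 the signals were 11.60, 11.37 and 11.32 in ABZ worms, against 10.55, 11.35 and 11.45 in DMSO worms. The groups overlapped, with a difference of 0.31, or 0.03 (−0.22 to 0.28) without DMSO replicate 1. The gene unc-52 encodes perlecan, the basement membrane ligand, and gave 9.96, 9.30 and 9.23 in ABZ worms, against 8.85, 9.20 and 9.46 in DMSO worms. These groups overlapped, with a difference of 0.33 (−0.28 to 0.94), or 0.17 without that array.

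At the dense body, deb-1 (vinculin) and atn-1 (α-actinin) each had a difference of 0.26, and of 0.16 and 0.19 without DMSO replicate 1. In atn-1 the signals were 10.12, 9.51 and 9.40 in ABZ worms and 9.27, 9.42 and 9.56 in DMSO worms. ABZ replicate 1 stood alone above an overlapping set of 5 arrays. The LIM-domain gene unc-95 ran the other way, with 8.68, 8.64 and 8.75 in ABZ worms, against 9.23, 8.56 and 8.77 in DMSO worms. DMSO replicate 1 was the highest array there, and the difference was −0.16 (−0.61 to 0.29), or 0.03 without it.

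Of the excitation genes, egl-19 encodes the L-type calcium channel and unc-68 the ryanodine receptor that releases stored calcium. For unc-68 the signals were 9.16, 8.23 and 8.25 in ABZ worms, against 7.54, 8.07 and 8.41 in DMSO worms. ABZ replicate 1 lay 0.92 above the mean of the other ABZ arrays. The difference was 0.54 (−0.27 to 1.35), 0.30 (−0.45 to 1.06) without DMSO replicate 1 and 0.00 without replicate 1 of both conditions. For egl-19 the signals were 9.15, 8.68 and 8.47 in ABZ worms and 7.96, 8.58 and 8.65 in DMSO worms, and the groups overlapped with a difference of 0.37 (−0.25 to 0.99), or 0.15 without DMSO replicate 1.

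**Figure D3:**
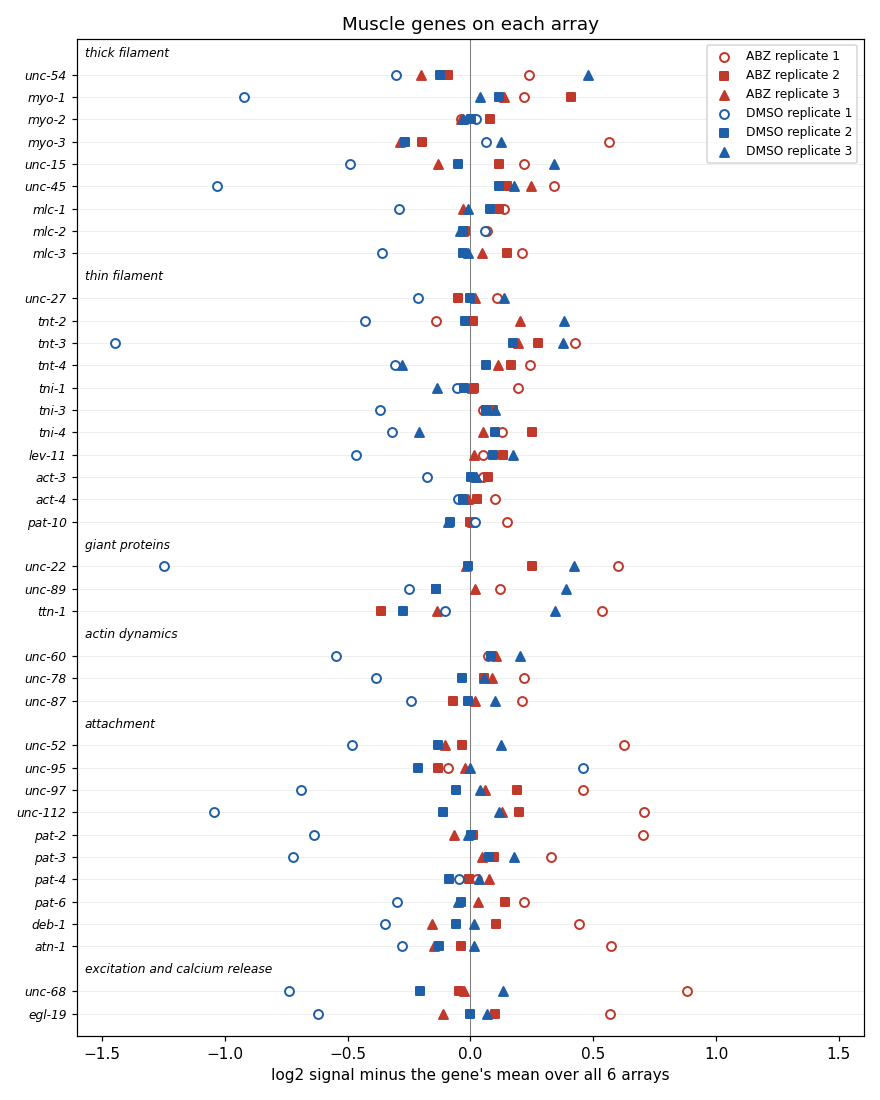
Log2 signal of each muscle gene on each array, as the deviation from the gene's mean over all 6 arrays, with ABZ arrays in red, DMSO arrays in blue and replicate 1 of each as open circles. DMSO replicate 1 gave the lowest value for 30 genes and ABZ replicate 1 the highest for 24. Without DMSO replicate 1, the conditions overlapped for 28 genes, and for 10 all ABZ values lay above the DMSO values.

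Counted over genes, all 3 ABZ values lay above all 3 DMSO values in 9 of 38 muscle genes (23.7%): myo-1, mlc-3, tnt-4, tni-1, act-3, act-4, pat-6, unc-97 and unc-112. In no muscle gene did they lie below on the probe set used. Among probe sets not used, some of ttn-1 lay below, with differences of −0.47, −0.54 and −0.13. Others, of lev-11, mlc-2, pat-10, unc-52, unc-97 and unc-112, lay above. Over all probe sets the shares were 7.81% above and 10.1% below. Among the 6847 genes of the 2 brightest bins they were 11.6% above and 1.4% below. Without DMSO replicate 1, 10 muscle genes had all ABZ values above both DMSO values, with pat-10 added and none lost. The shares over all probe sets were then 10.2% above and 15% below, and among the bright genes 13.1% above and 8.34% below.

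ABZ replicate 1 also stood out within its condition, and did so for a larger share of muscle genes than of all genes or bright genes. It was the highest ABZ array for 28 of 38 muscle genes (73.7%), against 27.4% of all genes and 31.0% of genes in the 2 brightest bins. It lay more than 0.5 above the mean of the other ABZ arrays for 8 muscle genes (21.1%), against 3.43% of bright genes. These 8 were myo-3, unc-52, unc-68, unc-112, pat-2, atn-1, ttn-1 and egl-19. Other lists shared the trait. ABZ replicate 1 was the highest ABZ array for 9 of 11 basement membrane genes, 6 of 8 epidermal attachment genes and 5 of 7 epidermis markers. Its median deviation from the other ABZ arrays was 0.23, 0.34 and 0.16 in these lists, against 0.15 in the muscle genes. DMSO replicate 3 was the highest of all arrays for 8 others (21.1%, against 11.7% of all genes): unc-54, unc-15, unc-27, unc-60, unc-89, tnt-2, tni-3 and lev-11. These are shares over genes that sit on the same arrays, and no test was made of them.

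Leaving out replicate 1 of both conditions gave 18 positive muscle genes, 18 negative and 2 at 0.00, with a median of 0.00. With ABZ replicate 1 alone left out there were 32 positive and 6 negative, with a median of 0.12.

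**Figure D4:**
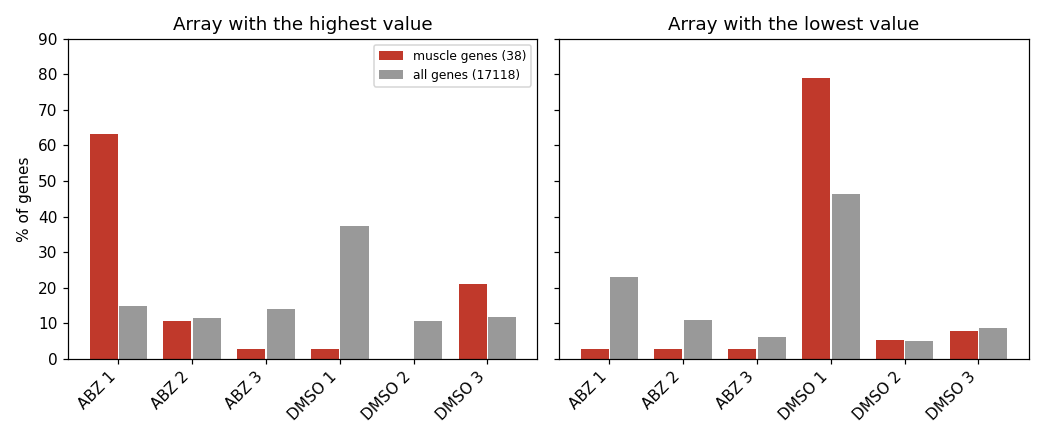
Percent of genes whose highest (left) or lowest (right) value fell on each array, for the 38 muscle genes (red) and all 17118 genes (grey). ABZ replicate 1 held the highest value for 63.2% of muscle genes and 14.9% of all genes, and DMSO replicate 1 the lowest for 78.9% and 46.3%.

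Several muscle genes are reported by more than one probe set, which gives a check of the values within a gene. The 38 genes have 79 probe sets of their own, of which 62 had a positive difference, and 53 without DMSO replicate 1. In 13 of 22 genes with 2 or more, no probe sets had opposite signs. Opposite signs were found in egl-19, lev-11, ttn-1, unc-22, unc-45, unc-52, unc-60, unc-68 and unc-89. The median spread between the probe sets of a gene was 0.26, above the muscle median of 0.16, and 0.10 without DMSO replicate 1. Spreads were widest in unc-89 (0.89), unc-22 (0.83) and unc-52 (0.76). Probe sets of unc-112 and unc-97 lay within 0.24 and 0.05 of each other. For 6 genes (unc-52, unc-60, unc-87, unc-112, lev-11 and mlc-2) the probe set used is of the type that Affymetrix marks as open to cross-hybridisation.

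**Figure D5:**
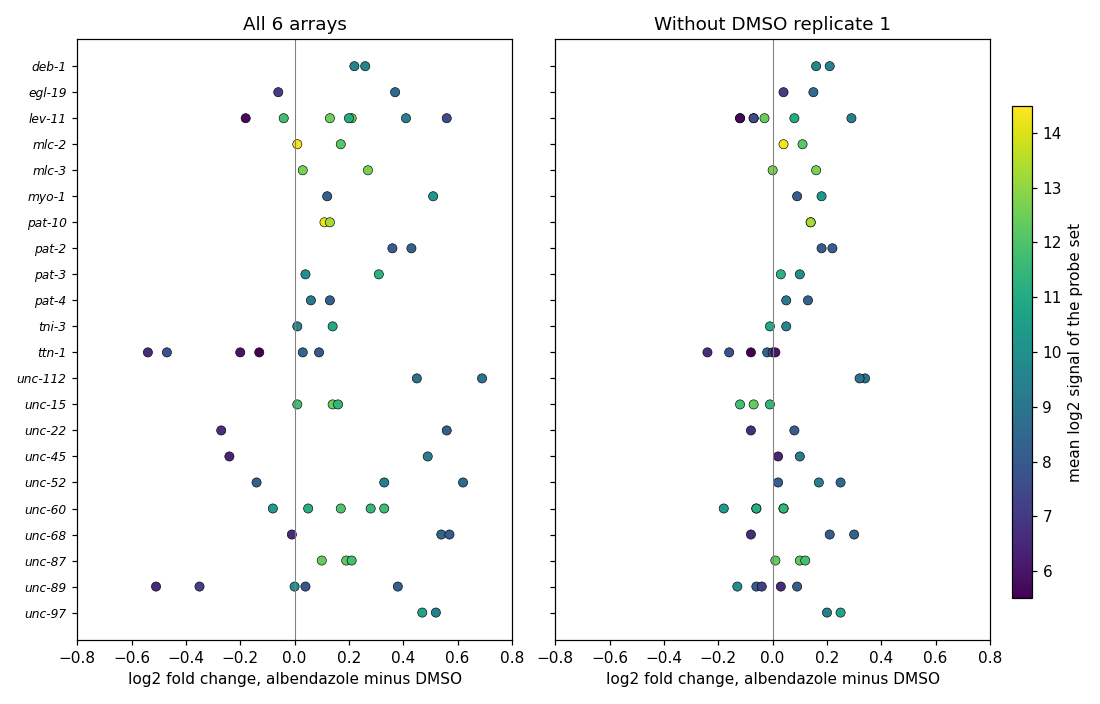
Log2 fold change, ABZ minus DMSO, of every probe set of the 22 muscle genes with 2 or more, coloured by mean log2 signal, with all 6 arrays (left) and without DMSO replicate 1 (right). The probe sets of a gene lie closer together on the right, where the median spread is 0.10, against 0.26 on the left.

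Pharyngeal and body-wall muscle were set side by side from short marker lists, with no test. The 4 pharyngeal markers myo-1, myo-2, tnt-4 and tni-4 had a median difference of 0.31, and 0.19 without DMSO replicate 1. The 3 body-wall markers myo-3, unc-54 and hlh-1 had a median of 0.05, and 0.10 without that array. Over the 34 muscle genes outside the pharyngeal list the median was 0.15, and 0.06 without that array. The genes unc-54, myo-3 and all 4 pharyngeal markers lie in the 2 brightest bins. Since 36 of the 38 muscle genes lie there, this does not check which muscle a marker stands for. The transcription factor gene hlh-1 was dim, at 6.36, 6.27 and 6.51 in ABZ worms and 6.37, 6.26 and 6.23 in DMSO worms.

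The partners of these genes in the same pathways gave 0 called genes in either direction, in every list. Of 20 further sarcomere and dense body genes, 16 were positive and 4 negative, with a median of 0.17, and 0.03 without DMSO replicate 1. The smallest p among the positive differences was that of the myosin gene myo-6, at 0.30 (0.21 without that array). Among the negative ones it was that of cpna-1, whose copine-domain product lies at integrin adhesions, at −0.19 (−0.23 without it). Basement membrane genes had a median of 0.21 over 11 genes, and 0.09 without DMSO replicate 1. The collagen IV gene emb-9 had a difference of 0.34 and the hemicentin gene him-4 one of −0.32, or 0.18 and −0.09 without that array. For 8 epidermal attachment genes, whose products carry muscle force to the cuticle, the median was 0.26, and 0.09 without that array. Another listed gene, ifa-2, was not found on a probe set of its own. Among the 8 measured, the myotactin gene let-805 had a difference of 0.34, or 0.35 without DMSO replicate 1, and vab-19 one of −0.66, or −0.13.

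The 23 genes of the muscle membrane, its receptors and calcium store had a median of 0.10, with 15 positive and 8 negative, and a median of 0.09 without DMSO replicate 1. The CaM kinase II gene unc-43 had a difference of 0.29, or 0.24 without that array, and the acetylcholine receptor gene unc-63 one of −0.44, or −0.09 without DMSO replicate 1. Of 7 dystrophin complex genes listed, the dystrophin gene dys-1 was not found on a probe set of its own. Of the other 6, 2 were positive and 4 negative, and without DMSO replicate 1 these were 5 and 1. For the dystrobrevin gene dyb-1 the signals were 7.08, 6.90 and 6.79 in ABZ worms, against 9.29, 6.85 and 6.85 in DMSO worms. One DMSO array alone set that difference of −0.74, which was 0.07 without it, while the syntrophin gene stn-1 had one of 0.48, or 0.15 without that array.

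Of 4 muscle transcription factor genes, 2 were positive and 2 negative, with a median of 0.00. Without DMSO replicate 1 all 4 were positive, with a median of 0.16. Among them unc-120 (the serum response factor homologue) gave 9.05, 8.88 and 9.05 in ABZ worms and 8.44, 8.64 and 8.79 in DMSO worms. The groups did not overlap, and the difference was 0.37 (0.06 to 0.68; limma unadjusted p = 0.0266, adjusted p = 0.651), or 0.28 without DMSO replicate 1. The other named factor gene, hnd-1, had −0.19, or 0.04 without that array. Of 18 genes listed for the actin machinery outside the sarcomere, arx-1 to arx-7 were not found on probe sets of their own. Over the other 11 genes the median was 0.24, and 0.00 without DMSO replicate 1. The intestinal actin gene act-5 had a difference of 0.24 and wve-1 one of −0.01, or 0.31 and −0.05 without that array. Also without it, 4 of these 11 genes had an unadjusted p under 0.05 (limma), against 5.74% of all probe sets, and none was called. They were act-5, the capping protein gene cap-2 at 0.16, the non-muscle myosin gene nmy-2 at −0.33 and the formin gene cyk-1 at −0.29, the last 3 being named after their values were seen. In nmy-2 the signals were 11.22, 11.15 and 11.13 in ABZ worms, against 10.50, 11.41 and 11.58 in DMSO worms, so that DMSO replicate 1 lay below the ABZ arrays and the other DMSO arrays above them.

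Markers of other tissues were measured on the same arrays, with all 7 of 7 genes of each list measured. The mean log2 signal of the neuron list was 9.57 to 9.75 in ABZ worms and 9.13 to 9.61 in DMSO worms. For the germ line it was 11.22 to 11.41 in ABZ worms, against 10.62 to 11.54 in DMSO worms. The epidermis list spanned 10.34 to 10.54 in ABZ worms and 10.25 to 10.36 in DMSO worms, with ABZ replicate 1 the highest. For the intestine it was 11.07 to 11.29 in ABZ worms and 10.98 to 11.16 in DMSO worms. The mean of each list was lowest on DMSO replicate 1. That array held the lowest value for all 7 germ line genes and 4 of 7 neuron genes. It did so for only 3 of 7 epidermis genes and 2 of 7 intestine genes. The part of tissue make-up in the muscle values was not tested. The gene ben-1 itself gave 8.99, 8.67 and 8.74 in ABZ worms, against 7.95, 8.65 and 8.63 in DMSO worms, a difference of 0.39 (−0.15 to 0.92), or 0.16 without DMSO replicate 1, and the labels do not say how e1880 affects its transcript.

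Weighting each array by its consistency (limma array weights) gave DMSO replicate 1 a weight of 0.0428. Then 6 muscle genes (15.8%) had an unadjusted p under 0.05: unc-78, unc-97, unc-112, mlc-3, pat-6 and pat-10. The share over the whole table was 20.7%, and 28 probe sets (0.124%) but no muscle gene were called, the smallest adjusted p of a muscle gene being 0.158. The default weights stopped before they converged, which limits how far these values can be read.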

How the data were processed

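The authors' deposited table holds 1 log2 value per probe set and array. RMA and limma are named, without version or role, per the submitters' processing notes. The log2 scale was taken from the range of the deposited values, 4.89 to 14.89. One array has a narrower spread of probe set values than the others. Whether a quantile step between arrays was applied to the single probes cannot be told from the deposited values. The 77 control probe sets were left out of 22625 rows, which left 22548. Of these, 20766 list 1 gene, 887 several and 895 none, in a platform annotation that can be old. All 38 muscle genes' symbols matched the RefSeq gene table.

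ABZ was compared with DMSO by limma 3.58.1 in R 4.3.3 (lmFit and eBayes, group as the only term, two-sided), with Benjamini-Hochberg adjustment over all 22548 probe sets and a threshold of 0.05. The script was tested on simulated data. Counts and figures used Python 3.11.15 with pandas 2.3.3, numpy 2.4.6 and matplotlib 3.10.9. The number of arrays, 3 per condition, limits the precision.

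The muscle genes and gene lists were chosen with earlier results of these data known. Every measured muscle gene is named. Each pathway list is named by the gene with the smallest p in each direction, and marker lists are given as counts and ranges. Alternatives covered low values, scaling, the variance model, array weights, the probe set of a gene, the replicate number as a block and each array left out. Gene-by-gene weights were added after the data were seen.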

Additional observations from a re-analysis of the deposited data

How the results depend on the processing

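No muscle gene was called under any of the 16 alternatives, and the median difference ran from 0.00 to 0.27, including 0.07 to 0.27 when 1 array was left out and 0.02 under quantile or cyclic loess scaling. Over the whole table, array weights called 28 probe sets and gene-by-gene weights, chosen after seeing the data, 5. An unadjusted p under 0.05 was met by 420 probe sets and 1 muscle gene. With the replicate number as a block, 0 probe sets and 0 muscle genes were called, 259 probe sets had an unadjusted p under 0.05 and the median stayed 0.16. The labels name no pairing, so the numbers were not taken to pair the cultures. The deviations of same-numbered arrays correlated at 0.125, 0.264 and 0.066. Each array correlated best with its own number, though DMSO replicate 3 also reached 0.0625 with ABZ replicate 2. No conclusion on pairing was drawn from these values, and the design does not state it. With 3 arrays per condition, and one apart, a true difference anywhere inside the intervals given could have been missed.

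The sign of a muscle gene's difference changed in 74 of 608 values, all of differences that were not called, and the cause was not tested. This tally counts unc-89 as unchanged throughout, since its difference of 0.00 has no sign. For unc-89 the difference was −0.24 under quantile and cyclic loess scaling and ran from −0.13 to 0.20 with 1 array left out. Under quantile scaling it changed for myo-2 (−0.16), myo-3 (−0.17), unc-15 (−0.03), unc-27 (−0.05), unc-60 (−0.01), unc-87 (−0.05), tnt-2 (−0.09), tni-1 (−0.05), tni-3 (−0.08), lev-11 (−0.02), mlc-2 (−0.01), pat-4 (−0.16) and ttn-1 (−0.07). Cyclic loess changed myo-2 (−0.16), myo-3 (−0.17), unc-15 (−0.01), unc-27 (−0.06), unc-78 (−0.01), unc-87 (−0.04), tnt-2 (−0.09), tni-1 (−0.07), tni-3 (−0.09), lev-11 (−0.01), mlc-2 (−0.02), pat-4 (−0.16) and ttn-1 (−0.10). Array weights changed unc-54 (0.03), unc-95 (0.12) and lev-11 (−0.02). Gene-by-gene weights changed unc-27 (−0.03), unc-60 (−0.03), unc-87 (−0.01), unc-95 (0.07), tnt-2 (−0.04), lev-11 (−0.03) and ttn-1 (−0.03). Without replicate 1 of both conditions the sign changed for myo-3 (−0.17), unc-15 (−0.15), unc-22 (−0.09), unc-27 (−0.08), unc-52 (−0.06), unc-60 (−0.05), unc-87 (−0.07), unc-95 (0.04), tnt-2 (−0.07), tnt-3 (−0.04), tni-3 (−0.01), lev-11 (−0.06), pat-2 (−0.03), pat-3 (−0.06), atn-1 (−0.03), ttn-1 (−0.28) and egl-19 (−0.04). The mean of all probe sets of a gene changed ttn-1 (−0.20). With 1 array left out at a time, the genes whose sign changed had ranges of unc-54 −0.20 to 0.20, myo-2 −0.03 to 0.03, myo-3 −0.22 to 0.20, unc-15 −0.07 to 0.34, unc-27 −0.04 to 0.14, unc-60 −0.06 to 0.32, unc-95 −0.31 to 0.03, tnt-2 −0.16 to 0.25, tni-3 −0.01 to 0.22, lev-11 −0.07 to 0.25, mlc-2 −0.03 to 0.04 and ttn-1 −0.24 to 0.22.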
